A study of Oryza sativa with 44 samples.

Results

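Among 55801 rice loci with an MSU locus ID in the count table, 168 were on in the wild type labelled NIP and off in the wild type labelled DJ. A locus was taken as on when each of the 3 NIP libraries held at least 1 CPM (the count scaled to the library total), and as off when each of the 3 DJ libraries held at most 3 counts. Loci in 3 stretches of the locus numbering were left out by the rule (LOC_Os06g36000 to LOC_Os06g41300, LOC_Os11g11000 to LOC_Os11g13500 and LOC_Os12g11000 to LOC_Os12g17450), where 24 more loci met both limits. The members were chosen by the counts and CPM of the wild type libraries, so those values are given as a description with no test.

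The study measured RNA by sequencing in seedlings of Oryza sativa grown for 2 weeks in nutrient solution, in 44 libraries that fell into 15 groups of 3, except osythdf2a with 2. The labels give NIP and DJ as wild types and do not spell out either name. CRISPR knockout lines carried the NIP label (osythdf3c, osythdf1c, osythdf5c, osythdf3b, osythdf4c, osythdf2b and osythdf1b), as did the knockdown lines RNAi-OsYTHDF2C and RNAi-OsYTHDC1A and the overexpression line OE-OsYTHDF1A. The knockout lines osythdf1a, osythdf2a and osythdf3a carried the DJ label. The labels name no organ, and do not say whether a line came from 1 transformant or several. OsYTHDF1A was knocked out under the DJ label and overexpressed under the NIP label, and no YTH gene was changed in the same way under both. Among the lines, label and targeted gene therefore cannot be told apart.

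YTH proteins bind RNA that carries the methylated base m6A and influence how long such RNA lasts and how well it is translated. Cultivars of rice differ in which genes they carry and in which they transcribe. An MSU locus ID carries the chromosome and the order of the locus along it. All libraries were counted against IRGSP-1.0, the Nipponbare assembly, so RNA that was not made and RNA whose sequence or gene is missing from a plant cannot be told apart. The reference table paired 0 of the 168 members with a name, so they are given by locus ID and with no function.

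Library totals ran from 13541543 to 24099581 counts, so the limit of 3 counts lay below 1 CPM in every library. Replicates of a group differed by more than counting error, and none was merged with another. The chi-square per degree of freedom between replicates had a median of 2.31, but osythdf3a replicate 3 stood apart at 110 and 94.4 from its 2 replicates, and the osythdf5c replicates were 5.90 to 18.3 apart. Without osythdf3a replicate 3, a choice made after seeing the data for the counts over all DJ lines, osythdf3a had 7 members on and 139 off, and the counts given below over the 3 DJ lines became 15 on in at least 1, 4 in all 3, 9 in exactly 1 and 82 off in all 3. The test of NIP lines against DJ lines still gave 85 higher and 1 lower, and osythdf3a against the other DJ lines gave 3 higher and 6 lower. With any 1 osythdf5c library left out, that line had 90 to 92 members on, 42 to 43 off, and 23 to 24 higher and 10 to 12 lower than the other NIP lines. No share over all genes is given for these left-out fits, so their counts show only how far the calls moved. The series text calls replicates biological, but the labels do not say which plants entered a library, so a p-value here reflects how much these libraries or lines vary.

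In NIP the members were modest in level. Their mean CPM over the 3 NIP libraries ran from 1.1 to 157 with a median of 3.50, against a median of 17.3 for the 19642 other loci on in NIP outside the left-out stretches. Per length, the median was 2.86 FPKM (counts scaled to gene length and library total) against 9.69 for those other loci. Members were also shorter, with a median length of 1422 bases against 1834. At the top, 33 members held 10 CPM or more in every NIP library, and at the bottom 59 had a NIP library under 2 CPM. In DJ, 53 members had 0 counts in all 3 libraries and 25 had a library at the limit of 3.

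The members nearest the CPM limit were LOC_Os11g46970 and LOC_Os11g45420, each with a lowest NIP library of 1.01 CPM. Just outside it lay LOC_Os11g27795 at 0.991 CPM and LOC_Os08g34330 at 0.968 CPM. At the count limit, LOC_Os03g11160 and LOC_Os04g05580 had a DJ library with 3 counts, while LOC_Os01g31020 and LOC_Os02g04945 stayed outside with 4. LOC_Os01g31020 held at least 28.8 CPM in every NIP library, more than most members did.

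The members lay on all 12 chromosomes but unevenly. Chromosome 11 held 38 of them, or 22.6%, although it held 5.33% of the loci on in NIP. Relative to those loci, chromosome 11 had 3.60 members per 100, chromosome 12 had 2.26, chromosome 9 had 1.26 and chromosome 4 had 1.19. Chromosome 3 had 0.227, the lowest of the 12. No test was made of this spread, since wild type values fixed both the members and the loci on in NIP.

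**Figure D1:**
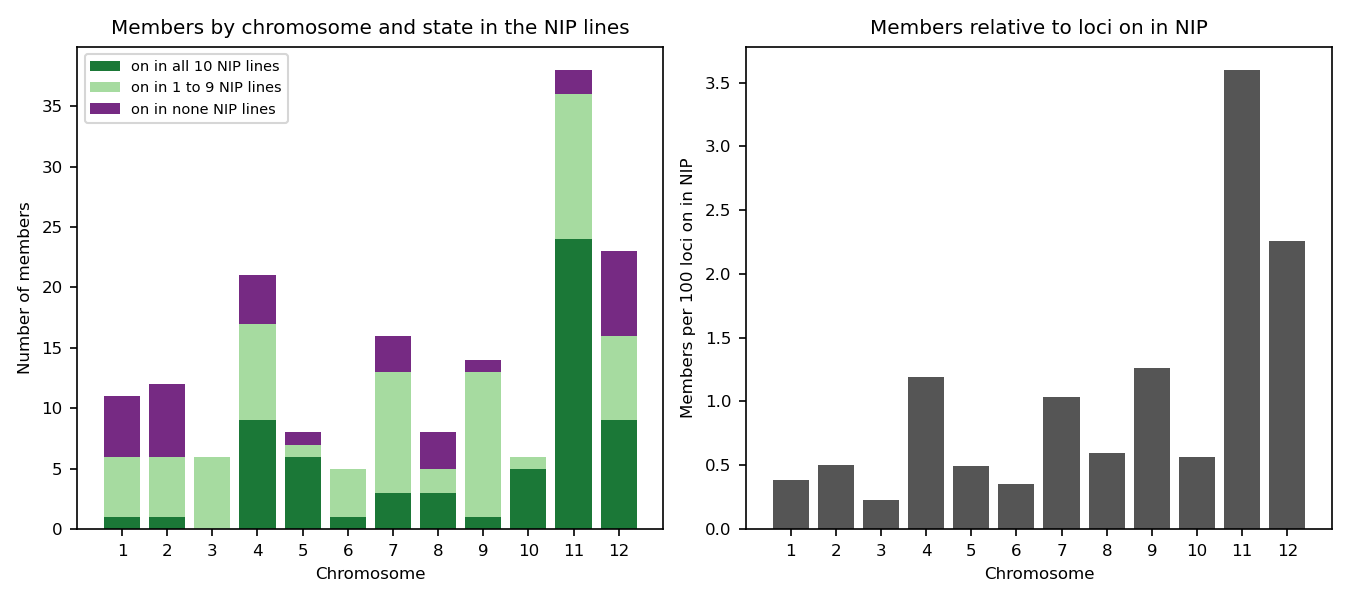
Left, number of the 168 members on each of the 12 chromosomes, coloured by how many of the 10 NIP lines they were on in; right, members per 100 loci on in NIP. Chromosome 11 is the tallest bar in both panels, with 38 members and 3.60 per 100 loci on, and 24 of its members were on in all 10 NIP lines.

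Neighbouring members formed short runs. Joined where they lay at most 10 loci apart in the locus order, 63 members fell into 21 runs, 51 of them in 15 runs of 3 or more, and 105 members stood alone. The longest runs held 5 members each, LOC_Os09g07140 to LOC_Os09g07240 on chromosome 9 and LOC_Os11g47180 to LOC_Os11g47410 on chromosome 11. Next came runs of 4, LOC_Os11g46960 to LOC_Os11g47039 and LOC_Os12g18240 to LOC_Os12g18550. In 15 cases a member was directly followed by another. Among them, the 3 loci LOC_Os09g04360 to LOC_Os09g04380 and the 3 loci LOC_Os11g37040 to LOC_Os11g37060 were unbroken.

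The end of chromosome 11 stood out after its values were seen. From LOC_Os11g45420 to LOC_Os11g47410, 15 of 141 loci were members, and 13 of these 15 were on in all 10 NIP lines. The same stretch held 20 other loci on in NIP, of which 16 were on in DJ as well, so members and loci shared by both wild types were interleaved.

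Most loci around the members were not on in NIP. Within 5 places on either side lay 1384 loci that were not members, and 26.9% of them were on in NIP, against 36.1% of all loci. Of the 372 neighbours on in NIP, 333 (89.5%) were on in DJ too. This was a lower share than the 96.3% of the 19642 other loci on in NIP outside the left-out stretches. The other shares in this paragraph did not leave those stretches out. The opposite pattern, on in DJ and off in NIP, was seen in 10 neighbours (0.723%), close to the 0.780% over the whole table, and 13 members had such a neighbour.

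The 13 lines were libraries that the rule had not used. With the same limits, the 10 NIP lines kept 79 to 115 of the 168 members on and had 11 to 58 off. The remaining 29 to 46 members lay between the limits. The lines osythdf3b and osythdf4c stood above the other 8, with 115 and 114 members on and 11 and 16 off. The other 8 NIP lines had 79 to 90 on and 39 to 58 off, with osythdf1c the line with most members off. So no NIP line showed the NIP wild type state at every member.

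In the DJ lines few members were on. osythdf1a had 6 on and 107 off, osythdf2a had 12 on and 119 off, and osythdf3a had 5 on and 138 off. Since osythdf2a had 2 libraries, a member could be on or off there with 1 library fewer meeting the limit. In all, 81 members were off in all 3 DJ lines, and 15 were on in at least 1 of them. osythdf1a and osythdf3a shared 99 members off, which was 92.5% of those off in osythdf1a and 71.7% of those off in osythdf3a. osythdf2a and osythdf3a shared more, 109, or 91.6% of those off in osythdf2a and 79.0% of those off in osythdf3a. osythdf1a and osythdf2a shared 84, or 78.5% and 70.6%. Over all members, 63.7% were off in osythdf1a, 70.8% in osythdf2a and 82.1% in osythdf3a. The overlaps were not tested against these shares. Of the 63 members on in all 10 NIP lines, 30 were off in all 3 DJ lines.

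**Figure D2:**
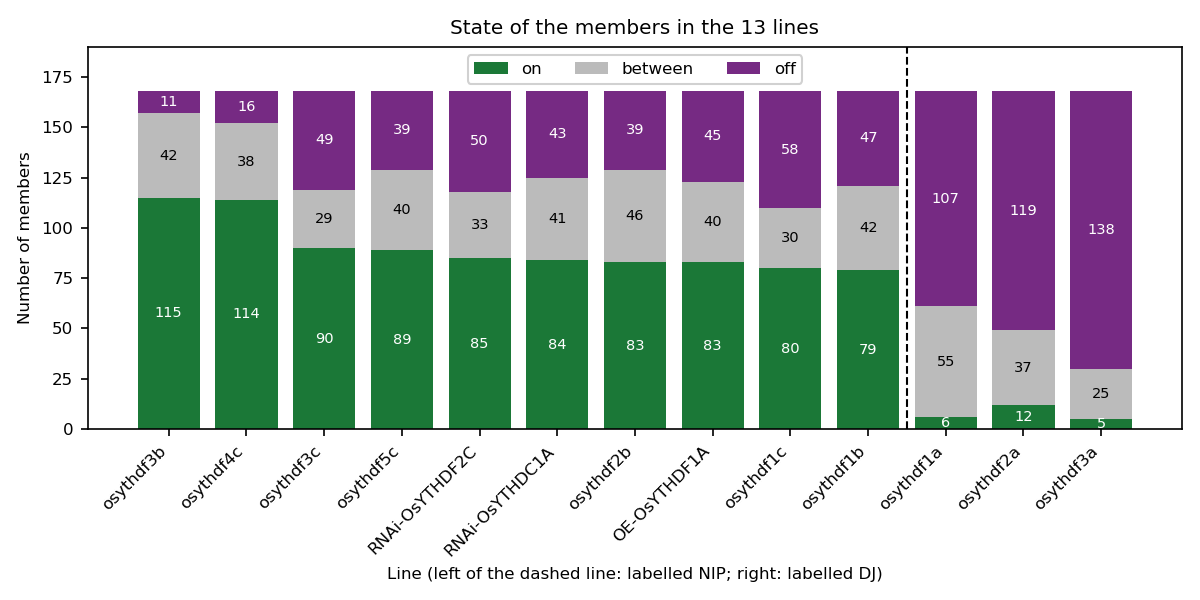
Number of the 168 members that were on (every library at 1 CPM or more), off (every library at 3 counts or fewer) or between in each of the 13 lines. osythdf3b and osythdf4c have the most members on among the lines labelled NIP, 115 and 114, and the 3 lines labelled DJ have 5 to 12 on.

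Other loci on in NIP were rarely off in any line. Of the 19642, 0.0713% to 1.11% were off per NIP line, against 6.55% to 34.5% of the members. Per DJ line it was 0.148% to 1.42%, against 63.7% to 82.1% of the members. The rule took members as off in DJ and left the other loci not off there, so the gap in the DJ lines restates the rule in part. The members are low, so the shares were also taken among loci under 5 CPM in NIP. There, 7.69% to 38.5% of 104 members were off per NIP line, against 0.231% to 3.55% of 4337 other loci. Per DJ line, 72.1% to 88.5% of these members were off, against 0.461% to 4.40% of the other loci.

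The summed CPM of the members was 1471 to 1485 in the NIP libraries and 6.19 to 7.20 in those of DJ, the values that chose the members. It reached 1194 to 1213 in osythdf4c and 964 to 986 in osythdf3b, and 585 to 789 over the libraries of the other 8 NIP lines. In the DJ lines it was 94.9 to 95.9 in osythdf2a, 47.6 to 56.3 in osythdf3a and 33.3 to 37.8 in osythdf1a. The groups of osythdf4c, osythdf3b, the other NIP lines and the DJ lines did not overlap in this sum. The 5 highest members made up 31.4% of the sum in NIP.

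**Figure D3:**
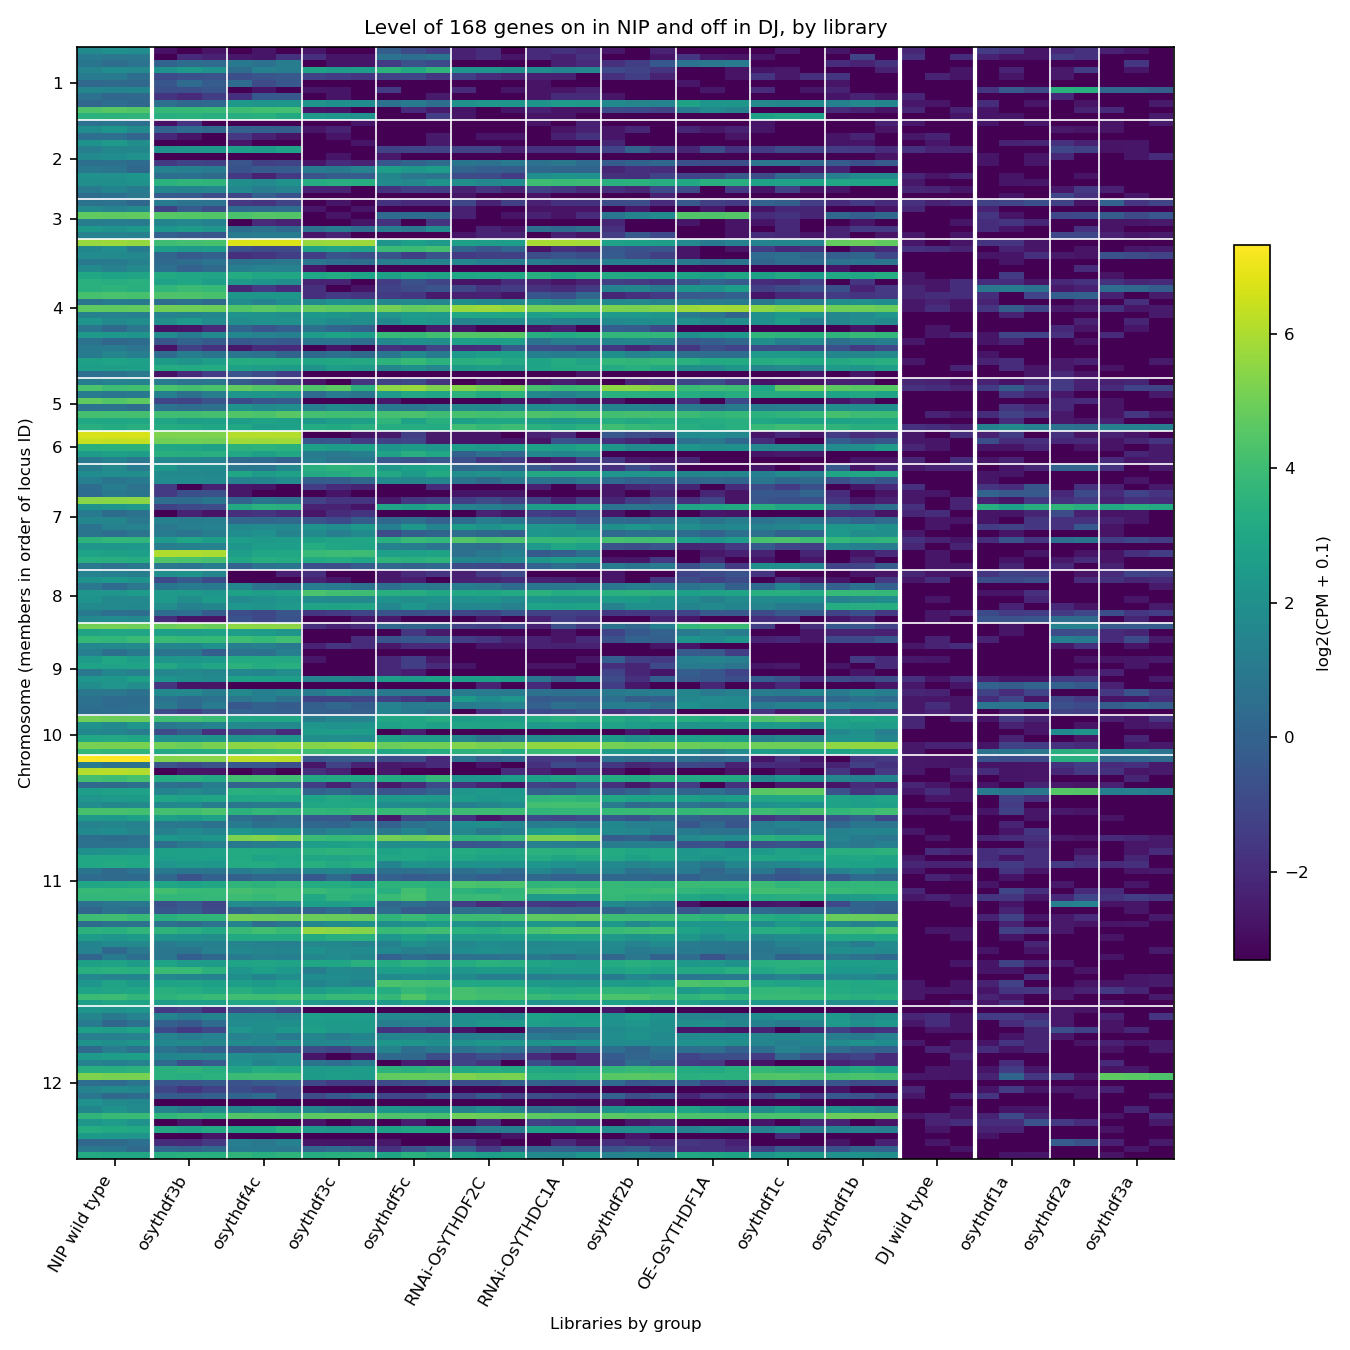
Level of each of the 168 members (rows, by chromosome and locus order) in each of the 44 libraries (columns, by group), as log2(CPM + 0.1). Rows that are bright across all NIP lines are frequent on chromosome 11, while blocks of rows on chromosomes 6 and 9 are bright in NIP, osythdf3b and osythdf4c and dark in most other NIP lines.

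By their state in the 10 NIP lines the members fell into 3 classes: 63 were on in all 10, 73 in 1 to 9, and 32 in none. The class on in all 10 was the one most often on chromosome 11, with 24 of 63 there, against 2 of the 32 on in none. Its median length was 1940 bases, and its median level in NIP was 6.71 CPM. The other classes had medians of 2.45 and 2.31 CPM. Runs of 2 or more held 47.6% of the members on in all 10, 39.7% of those on in 1 to 9 and 12.5% of those on in none.

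Members on in all 10 NIP lines stayed near the NIP level. The median log2 ratio of a line to NIP over these 63 members ran from -0.19 in OE-OsYTHDF1A to 0.30 in osythdf2b. For members on in 1 to 9 lines it ran from -3.69 in osythdf1c to -0.21 in osythdf3b, and for members on in none from -4.08 to -2.97. The NIP libraries chose the members, and the classes were cut from these same lines, so the ratios are a description. Individual members of the first class still varied: the highest line mean was 1.32 to 42.0 times the lowest, with a median of 2.77.

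LOC_Os11g17350 and LOC_Os05g22722 had the highest FPKM in NIP of the members on in all 10 lines. LOC_Os11g17350 read 18.2, 16.1 and 18.8 CPM in NIP, 17.2, 17.5 and 16.3 in osythdf4c, and 2.81, 2.44 and 2.70 in osythdf1b. No library of DJ or of a DJ line exceeded 0.112 CPM. LOC_Os11g17350 was therefore separated by label in every library, with osythdf1b the lowest NIP line. LOC_Os05g22722 read 20, 15.9 and 17.1 CPM in NIP and at most 0.781 in any library of DJ or of a DJ line. Its NIP lines spread widely, from 7.82 CPM in 1 osythdf1c library to 51.2 in 1 osythdf5c library. LOC_Os04g02530, picked after its values were seen, varied most in the class: 106, 106 and 104 CPM in osythdf4c against 3.15, 1.90 and 2.48 in OE-OsYTHDF1A, with 50.5, 51.9 and 50.4 in NIP.

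At the other end, LOC_Os11g09590 and LOC_Os05g28210 had the highest FPKM of the members on in no NIP line. LOC_Os11g09590 read 70.2, 75.2 and 69.0 CPM in NIP and at most 0.241 CPM in every other library, NIP lines included. LOC_Os05g28210 read 26.0, 22.4 and 25.7 CPM in NIP, and outside NIP its highest library was 0.695 CPM, in osythdf4c. Both were thus seen in the NIP wild type libraries and close to 0 elsewhere. The members off in all 10 NIP lines were 4, namely LOC_Os02g16010, LOC_Os02g19520, LOC_Os12g24310 and LOC_Os12g30320, named because they are the whole set.

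Among the 73 members on in 1 to 9 NIP lines, osythdf3b kept 52 on and osythdf4c 51, against 16 to 27 for the other 8 lines. Both kept 38 of the 73 and either kept 65. Of these 73, osythdf3b had 1 off and osythdf4c 2. The most frequent combination was on in osythdf3b and osythdf4c and in no other NIP line (8 members). It was followed by those lines with OE-OsYTHDF1A (7), then osythdf3b alone (6) and osythdf4c alone (6). Across all 168, 101 were on in both lines, among them the 63 on in all 10 NIP lines, and 2 were on in one and off in the other. Other pairs of NIP lines had as few opposite states, with 1 for osythdf2b and osythdf1b and 2 for osythdf1c and osythdf1b. The state was the same for 130 members in osythdf3b and osythdf4c, against 145 in osythdf1c and RNAi-OsYTHDF2C. So this agreement was not particular to the pair. Of the 15 members off in all of the other 8 NIP lines, 9 were off in neither osythdf3b nor osythdf4c, and 4 were off in both.

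The members with the highest FPKM in NIP, LOC_Os09g04360 and LOC_Os11g04020, were highest in those same lines. LOC_Os11g04020 read 154, 160 and 156 CPM in NIP, 77.5, 76.2 and 74.6 in osythdf4c, and 39.4, 40.9 and 42.0 in osythdf3b. The other 8 NIP lines did not exceed 1.49 CPM, while osythdf2a, a DJ line, read 10.2 and 10.1. LOC_Os09g04360 read 33.5, 34.1 and 31.3 CPM in NIP, 46.0, 44.8 and 44.1 in osythdf4c, 30.2, 33.4 and 30.1 in osythdf3b, and 13, 15 and 15.2 in OE-OsYTHDF1A. The remaining NIP lines lay at 2.32 CPM or lower for LOC_Os09g04360, below every library of those 4 groups.

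Members close together tended to share a state. Over the 10 NIP lines, consecutive members at most 10 loci apart had the same state in 68.8% of 420 comparisons, and 2.38% set on against off. For consecutive members farther apart on 1 chromosome, the same state was seen in 42.7% of 1140 comparisons and on against off in 21.2%. Each pair was counted once per line, so the comparisons are not independent. The state was the same in all 10 lines for 13 of 42 close pairs and 18 of 114 far pairs. Members on in all 10 lines share their state by definition and lay in runs more often. Their part in this difference was not tested. Among the 15 directly adjacent pairs, 0 of 150 comparisons set on against off. The run LOC_Os11g47180 to LOC_Os11g47410 had all 5 members on in all 10 NIP lines. The run LOC_Os09g07140 to LOC_Os09g07240 had 4 of its 5 on in osythdf3b, 5 in osythdf4c, 2 in OE-OsYTHDF1A and 0 in each of the other 7.

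In the run LOC_Os06g19095 to LOC_Os06g19160 on chromosome 6, LOC_Os06g19095 and LOC_Os06g19110 were highest in the same lines, while LOC_Os06g19160 was on in all 10 NIP lines. LOC_Os06g19095 read 101, 101 and 102 CPM in NIP, 68.5, 70.9 and 67.7 in osythdf4c, and 38.3, 38.2 and 38 in osythdf3b. OE-OsYTHDF1A read 3.49, 3.49 and 3.02 CPM, and no library of the remaining NIP lines passed 0.637 CPM. Its neighbour LOC_Os06g19110 read 87.1, 81.1 and 82.4 CPM in NIP, 55.9, 52.0 and 56.0 in osythdf4c and 32.4, 33.1 and 32.4 in osythdf3b. LOC_Os06g19160 held 2.88 CPM or more in every NIP-line library. LOC_Os06g19095 and LOC_Os06g19110 ordered the groups NIP, osythdf4c, osythdf3b and OE-OsYTHDF1A with no overlap.

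**Figure D4:**
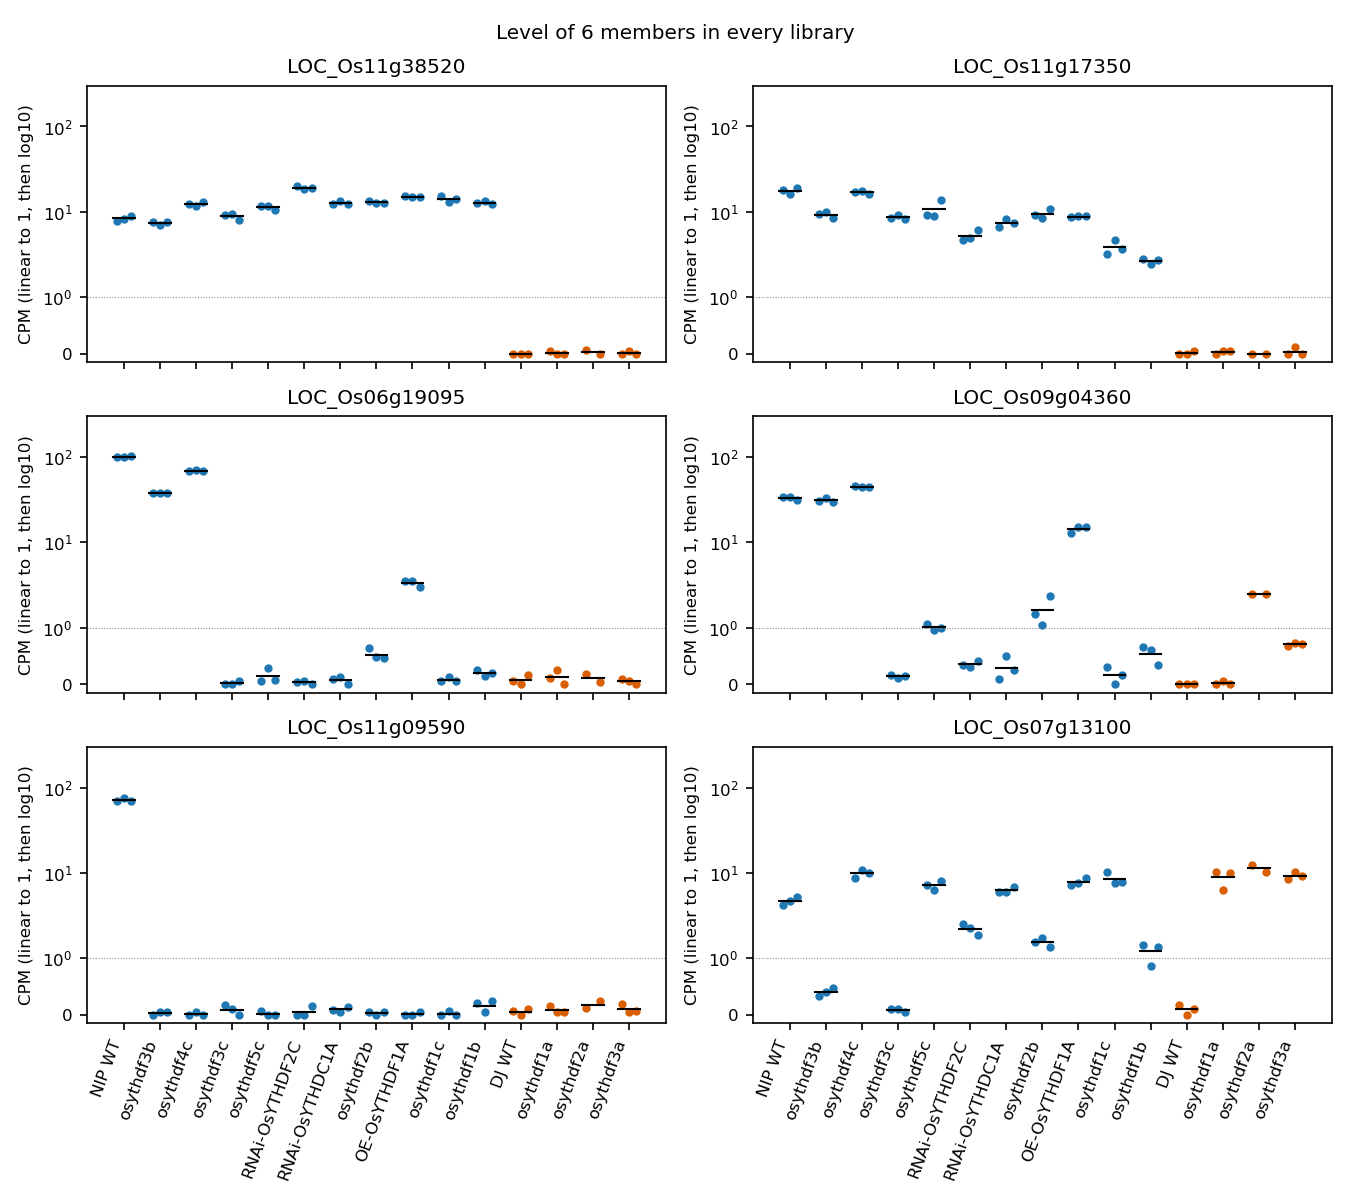
Level of 6 members in every library (points; CPM, linear to 1 and log10 above) with the group mean (bar), NIP and its lines in blue, DJ and its lines in orange. LOC_Os11g38520 and LOC_Os11g17350 separate by label, LOC_Os06g19095 and LOC_Os09g04360 are high in NIP, osythdf3b and osythdf4c, LOC_Os11g09590 is high in NIP and at most 0.241 CPM elsewhere, and LOC_Os07g13100 is on in all 3 DJ lines though off in DJ.

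Whether the members also differed between lines of the 2 labels was tested on counts summed per line, 10 NIP lines against 3 DJ lines, with both wild types left out. Of the 168 members, 146 passed the filter on low counts and 85 were higher in the NIP lines (edgeR quasi-likelihood test, Benjamini-Hochberg adjusted p under 0.05 and at least 2-fold). Over all 29296 genes tested, 1.81% were called higher. Called lower was 1 member, against 1.49% of all genes. Members that passed the filter through their NIP-line level alone had to be high there, so the count is read against the background only. By class, 61 of the 63 members on in all 10 NIP lines were called higher, 21 of the 73 on in 1 to 9, and 3 of the 32 on in none. The classes were cut from the same NIP-line libraries, so this order follows from their definition and nothing is read from it. For 82 members every NIP-line library lay above every DJ-line library, which held for 368 (0.634%) of all 58089 rows. The 368 include the 82 members, and the rows include those too low to test, so this share is a low background.

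The members with the largest fitted differences were LOC_Os07g40850 and LOC_Os11g38520. LOC_Os07g40850 averaged 2.97 CPM over the 10 NIP lines, with libraries from 0.113 to 9.49, and had 0 counts in all 8 DJ-line libraries. With counts pooled over libraries, LOC_Os07g40850 had 1723 counts in the 30 NIP-line libraries. Set against a floor of 3 counts over the 8 DJ-line libraries, this was at least 147-fold higher, for counting error only. The separately fitted difference was called in the edgeR quasi-likelihood test (Benjamini-Hochberg adjusted p = 0.011). By limma on log2(FPKM + 1) the difference was 1.66 and the call was lost (adjusted p = 0.14), while the other alternatives kept it, with adjusted p up to 0.048. LOC_Os11g38520 had 7.07 to 19.9 CPM in every NIP-line library and 3 counts over all 8 DJ-line libraries. Its pooled ratio was 608, with an exact 95% interval of 208 to 2947 that covers counting error only. The edgeR quasi-likelihood test called LOC_Os11g38520 too (Benjamini-Hochberg adjusted p = 1.1e-07). Both loci passed the filter through their NIP-line counts alone and so had to be higher there. Nothing is therefore read from the direction of these calls.

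LOC_Os01g43740 was the member called lower in the NIP lines. It read 2.81, 2.71 and 2.86 CPM in NIP, but at most 0.616 in any NIP-line library, and 10.9 and 10.4 in osythdf2a. osythdf3a read 1.07, 1.07 and 0.771 CPM and osythdf1a 0.216, 0.677 and 0.450, so the DJ lines overlapped the NIP lines at their low end. The log2 difference was -5.03 (SE 1.02) in the edgeR quasi-likelihood test (Benjamini-Hochberg adjusted p = 0.012). Without osythdf2a it was -2.85 (edgeR quasi-likelihood test, Benjamini-Hochberg adjusted p = 0.15), so the call rested on that line. LOC_Os01g43740 was too low in the NIP lines to pass the filter without the DJ lines, so nothing is read from its direction.

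**Figure D5:**
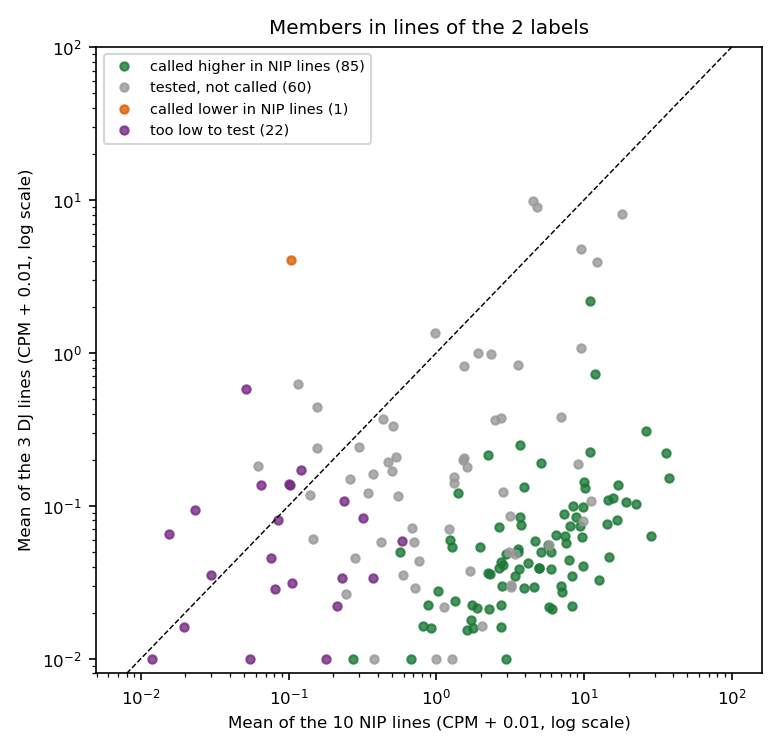
Mean level of each member over the 10 NIP lines (horizontal) and the 3 DJ lines (vertical), both as CPM + 0.01 on log scales, with the dashed line marking equality. The 85 members called higher in the NIP lines lie below the line, and the 1 called lower, LOC_Os01g43740, lies above it.

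Each NIP line was then set against the mean of the other 9 NIP lines, with the NIP wild type left out. Of the 168 members, 148 passed the filter. In osythdf3b, 60 members were higher (9.55% of the 27425 genes tested were) and 10 lower (13.6%). In osythdf4c, 60 were higher (12.8%) and 9 lower (7.52%). Of the 60, 47 in osythdf3b and 48 in osythdf4c came from the members on in 1 to 9 NIP lines. That class was cut from the same NIP-line libraries, so these counts follow in part from its definition and nothing is read from them.

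The other 8 lines had 4 to 29 members higher and 13 to 30 lower. In osythdf1b 4 members were higher (12.4% of all genes) and 24 lower (5.72%), and in osythdf1c 10 were higher (7.50%) and 24 lower (10.7%). In osythdf3c 22 were higher (17.1%) and 30 lower (11.5%). In RNAi-OsYTHDF2C 18 were higher (4.54%) and 20 lower (6.47%). In RNAi-OsYTHDC1A 14 were higher (13.4%) and 18 lower (3.91%). In osythdf2b 13 were higher (5.19%) and 15 lower (3.27%). In OE-OsYTHDF1A 29 were higher (7.68%) and 23 lower (12.3%), and in osythdf5c 26 were higher (6.40%) and 13 lower (6.15%). The 10 comparisons share their reference libraries, and a line with more members on lowers the other lines relative to it.

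LOC_Os07g40900 was the extreme case in osythdf3b. It read 67.0, 67.1 and 62.8 CPM there, 7.06, 6.46 and 6.34 in NIP and 14.6, 15.8 and 15.4 in osythdf3c. The mean of 65.6 CPM in osythdf3b stood against 3.59 over the other 9 NIP lines (edgeR quasi-likelihood test, Benjamini-Hochberg adjusted p = 3.9e-55). osythdf2b had 0 counts in all 3 libraries, so among lines with the NIP label LOC_Os07g40900 ran from not detected to well above the wild type. Among the NIP lines, LOC_Os04g24804 was also highest in osythdf3b, with a mean of 19.7 CPM against 0.826 over the other 9 lines.

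In osythdf3b LOC_Os10g05290 was lower, at 2.22 CPM against 5.43, a log2 difference of -1.05 (SE 0.12), which became -0.92 and missed the 2-fold minimum without replicate 1. LOC_Os10g05860 averaged 5.90 CPM in osythdf3c against 0.425 in the other 9 lines, and LOC_Os07g01110 averaged 10.7 against 1.55. LOC_Os04g05580 averaged 16.0 CPM in osythdf5c against 1.67 elsewhere, and LOC_Os02g40250 averaged 5.49 against 0.789. These loci passed the test in the line named, and in each the libraries of that line lay clear of all other NIP-line libraries.

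LOC_Os11g28184 moved in opposite directions in 2 lines. It read 23.6, 24.6 and 24.5 CPM in osythdf1c, a log2 difference of 4.05 (SE 0.09) from the other lines, and 0.562, 0.203 and 0.337 in osythdf1b, a difference of -2.88 (SE 0.23). NIP read 5.92, 6.72 and 6.65 CPM, between the pair. LOC_Os10g04860 differed from the other NIP lines by 1.54 (SE 0.07) in osythdf1c and by -2.15 (SE 0.11) in osythdf3c on the log2 scale. NIP read 31.8, 30.7 and 30.3 CPM for LOC_Os10g04860, above both osythdf1c (20.5, 23.2 and 20.2) and osythdf3c (2.16, 2.90 and 2.53).

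The other named calls fell in 5 lines. RNAi-OsYTHDF2C held LOC_Os04g29810 at 6.11 CPM against 1.87 and LOC_Os04g29770 at 21.9 against 8.65, RNAi-OsYTHDC1A held LOC_Os11g32780 at 17.3 against 3.59, and osythdf1b held LOC_Os08g24330 at 9.74 against 4.08. On the low side, osythdf2b held LOC_Os11g35300 at 0.734 CPM against 17.2 and LOC_Os12g43850 at 2.71 against 7.61. OE-OsYTHDF1A held LOC_Os10g28680 at 3.16 against 10.2 and LOC_Os11g45890 at 6.17 against 18.0. Each passed the test, and each stands for the line in which its libraries did not overlap those of the other 9 lines.

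The DJ lines gave 20 members enough counts to test against each other, and 148 were too low. In osythdf2a 13 members were higher (21.6% of the 26393 genes tested) and 4 lower (10.5%). In osythdf1a 5 were higher (8.06%) and 10 lower (14.8%), and in osythdf3a 4 were higher (3.07%) and 5 lower (8.65%). With 20 members tested, these counts describe few loci. Members that passed the filter through 1 DJ line alone had to be high in that line. Of the 11 members on in exactly 1 DJ line, 8 were on in osythdf2a. Nothing is therefore read from the direction of these calls.

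Without the 2-fold minimum, at adjusted p under 0.05 alone, 85 members were higher in the NIP lines than in the DJ lines (1.98% of all genes) and 1 was lower (1.60%). Each line against the other lines of its label then gave far more calls over all genes. osythdf3b had 87 members higher (36.7% of all genes) and 29 lower (36.4%), and osythdf4c had 79 higher (37.9%) and 26 lower (33.5%). osythdf3c had 38 higher (40.9%) and 57 lower (36.6%), and osythdf1b had 25 higher (37.8%) and 46 lower (33.8%). osythdf1c had 35 higher (36.4%) and 46 lower (31.2%), and RNAi-OsYTHDC1A had 31 higher (37.1%) and 47 lower (32.1%). These 4 lines had more members lower than higher. Their lower counts were 27.4% to 33.9% of the 168 members, near the shares of all genes. No excess of lower members is therefore read without the fold minimum. Their higher counts were 14.9% to 22.6% of the 168, below the shares of all genes. With the 2-fold minimum, lower members were 14.3% of the 168 in osythdf1b (5.72% of genes tested) and 10.7% in RNAi-OsYTHDC1A (3.91%). They were 17.9% in osythdf3c (11.5%) and 14.3% in osythdf1c (10.7%), so at that limit the member shares were the larger. Of the 168 members, 20 were not tested. osythdf5c had 55 higher (30.4%) and 21 lower (27.0%), and RNAi-OsYTHDF2C had 45 higher (30.8%) and 33 lower (27.9%). osythdf2b had 43 higher (30.2%) and 27 lower (25.4%), and OE-OsYTHDF1A had 47 higher (33.2%) and 43 lower (32.6%). For RNAi-OsYTHDF2C and osythdf2b the larger of the 2 counts thus changed side with the fold minimum. Among the DJ lines osythdf3a had 4 higher (28.7%) and 8 lower (27.1%), osythdf1a had 6 higher (33.6%) and 10 lower (35.1%), and osythdf2a had 13 higher (39.5%) and 4 lower (35.7%). The limit that the filter sets on the DJ-line counts held here too.

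Of the 15 members on in at least 1 DJ line, 4 were on in all 3 and 11 in exactly 1, of which 8 were in osythdf2a, 2 in osythdf1a and 1 in osythdf3a. The 4 were LOC_Os10g28680, LOC_Os07g13100, LOC_Os05g31570 and LOC_Os11g28184, with the last pair named as the rest of the set. LOC_Os07g13100 read 8.42, 10.3 and 9.12 CPM in osythdf3a, 10.2, 6.30 and 9.96 in osythdf1a and 12.2 and 10.4 in osythdf2a. It read 0.183, 0 and 0.108 CPM in DJ and 4.20, 4.74 and 5.15 in NIP. All 8 DJ-line libraries thus lay above all 6 wild type libraries for LOC_Os07g13100, while osythdf3c, a NIP line, held at most 0.111 CPM (log2 difference from the other NIP lines -5.32, SE 0.30).

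LOC_Os12g21784 was the member on in osythdf3a and in no other DJ line. It read 25.8, 24.5 and 20.4 CPM there, at most 0.990 CPM in any osythdf1a or osythdf2a library, and 37.9, 35.5 and 36.4 in NIP. The fitted difference from the other DJ lines was 6.70 on the log2 scale (SE 0.24). A member that passed the filter only through the DJ line where it was on had to be higher there. The differences in this paragraph are therefore given as a description. In osythdf2a the largest were LOC_Os01g43740, with a log2 difference of 3.65 (SE 0.19), and LOC_Os11g04020, with 3.50 (SE 0.18). Each of these 2 loci was lower in osythdf1a than in the other DJ lines, by -2.66 (SE 0.27) and -2.61 (SE 0.26).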

How the data were processed

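RNA-seq libraries were aligned and counted with HISAT2 and featureCounts on IRGSP-1.0, per the submitters' processing notes. The sources used here give no version, strand setting or multi-read handling, so loci with near-identical copies may share reads. The authors deposited whole-number counts per gene and FPKM values, which equal the count over gene length and library total. A further 40 columns per table, which no sample here names, were not used. CPM were computed from deposited counts and library totals of 13541543 to 24099581. Tests used edgeR 4.0.16 in R 4.3.3 (quasi-likelihood, TMM, filterByExpr, robust), with Benjamini-Hochberg adjustment over all genes. Alternatives were DESeq2 1.42.0 and limma 3.58.1, the latter on log2 FPKM with 0.1 or 1 added. A call needed adjusted p under 0.05 and at least 2-fold. Each line was set against the mean of the fitted log levels of the other lines of its label. The scripts were tested on simulated counts.

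The members, limits and comparisons were chosen with earlier results of these data known. Named loci were the first 2 by highest FPKM in NIP, by nearness to either limit, by run of 3 or more (first and last locus), by largest called log2 difference each way between the labels, by largest called difference each way in a line whose libraries did not overlap the reference lines and held 5 CPM or more in the higher group, and by number of NIP or DJ lines on. Others are said to be picked after their values were seen. The rows that carry the YTH genes are not analysed here, since the locus IDs were not paired with names.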

Additional observations from a re-analysis of the deposited data

How the results depend on the processing

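The membership limits set the size of the gene set: 263 loci at 0.5 CPM, 109 at 2 CPM, 58 at 5 CPM, 53 with off at 0 counts and 343 with off at 10 counts or fewer, and 175 to 185 with any 1 wild type library left out. With off at 0 counts the members off fell to 14 (osythdf3c), 22 (osythdf1c), 19 (RNAi-OsYTHDF2C), 16 (osythdf5c), 3 (osythdf3b), 7 (osythdf4c), 13 (RNAi-OsYTHDC1A), 11 (osythdf2b), 8 (osythdf1b), 20 (OE-OsYTHDF1A), 29 (osythdf1a), 57 (osythdf2a) and 39 (osythdf3a). With off at 10 counts they were 65 (osythdf5c), 24 (osythdf3b), 29 (osythdf4c) and 59 (osythdf2b). On at 2 CPM left 2 in osythdf1a, and on at 0.5 CPM gave 10 in osythdf3a. Runs of 3 or more were 8 at a gap of 5 loci.

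The 85 members higher in the NIP lines ranged from 81 to 86 with any 1 line left out. The 1 lower became 2 with no filter or with DESeq2, 6 over 38 libraries, with or without the replicate block, and 0 with limma on log2(FPKM + 1), and ranged from 0 to 2 with a line left out (0 without osythdf2a, 2 without osythdf3a). With no fold minimum, higher and lower counts were 43 and 27 (osythdf2b), 38 and 57 (osythdf3c), 25 and 46 (osythdf1b), 35 and 46 (osythdf1c), 55 and 21 (osythdf5c), 47 and 43 (OE-OsYTHDF1A), 45 and 33 (RNAi-OsYTHDF2C) and 31 and 47 (RNAi-OsYTHDC1A), and lower counts were 29 (osythdf3b) and 26 (osythdf4c). In the DJ lines, with no filter, 23 were higher in osythdf1a and 23 higher and 10 lower in osythdf2a, osythdf1a had 9 higher with DESeq2, and osythdf3a had 8 lower with no filter, library totals or no fold minimum. The cause was not tested, beyond the looser limit itself. Apart from the counts with no fold minimum, no share over all genes is given for these settings. Their counts therefore show only how far the calls moved, and nothing about the members is read from them. By limma on log2(FPKM + 1), LOC_Os07g40850 and LOC_Os01g43740 lost their calls. A count of 0 over the 8 DJ-line libraries allows up to 0.0207 CPM, for counting error only.

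Replicate numbers were not taken to pair libraries, since not every pair reached a correlation over 0.1: correlations of same-numbered libraries ran from -0.273 to 0.300 in the NIP lines and from 0.0267 to 0.110 in the DJ lines, where all 7 were positive and 7 of 8 libraries were nearest their own number, a hint of pairing from the data and not the design. The replicate block left the NIP-line counts as they were and moved the DJ-line counts by at most 2.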
